A study of Mus musculus with 33 samples.

Results

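Kidneys taken at week 5 after interferon treatment were set against kidneys taken at weeks 1, 2 and 3, all from treated mice. The members were chosen by the labelled time point alone, which gave 5 week 5 arrays and 15 early arrays, or 20 of the 33 arrays of the series. Every mouse was of the lupus-prone cross NZB X NZW F1 (BWF1), which develops immune complex glomerulonephritis, and each had received ADV_IFNa, an adenovirus that carries mouse interferon alpha. The kidneys were collected 5 weeks after that injection (5 mice), or after 1, 2 or 3 weeks (5 mice each). The study's methods describe the mice as female. The labels give no age, and the study's text is not uniform on the age at injection, so later kidneys also came from older mice by an equal number of weeks and time after virus and age cannot be told apart. No group with an empty virus was analysed here, and the untreated kidneys of the series do not enter the comparison. RNA of whole kidney was measured with 1 Affymetrix array per mouse, and every level below is a log2 RMA intensity, on which a difference of 1 is 2-fold.

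Interferon alpha signals through a receptor on nearly all cells and switches on a large set of antiviral genes, among them the IFIT and OAS families. In lupus nephritis, antibody complexes in the glomerulus attract monocytes, macrophages and lymphocytes, and tubular injury and scarring follow at later stages. In whole-kidney RNA a cell type that enters the tissue and a rise of a transcript in cells already there cannot be told apart, and neither can fewer cells and less RNA per cell.

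Over all probe sets the arrays were close to each other. Correlations between any 2 of the 20 arrays lay between 0.984 and 0.994, and array medians between 3.97 and 4.09. RNA integrity was read from control probe sets at both ends of a transcript. The ratio of 3′ to 5′ signal averaged 1.88 ± 0.08 (SD, n = 5) at week 5 and 1.93 ± 0.11 (SD, n = 15) at weeks 1 to 3 for beta-actin on the log2 scale, a difference of -0.05 (two-sided exact permutation test, p = 0.42), and that of Gapdh differed by -0.08 (exact permutation p = 0.127). The kidney label was borne out by Umod, the uromodulin gene of the thick ascending limb, at 10.96 to 11.19 in week 5 kidneys and 11.01 to 11.30 in early kidneys, and by Kap, a proximal tubule transcript, at 12.29 to 12.55 in week 5 kidneys and 12.32 to 12.64 in early kidneys. Of the other markers set for this check, Slc12a1, Aqp2 and Nphs1 were measured and did not pass in the comparison. Adrenal transcripts stood out in 3 early kidneys. Cyp11b1, an enzyme of corticosteroid synthesis, lay at 1.15 to 1.44 in week 5 kidneys and had an early median of 1.33, yet reached 7.32 in the highest early kidney. The mean of 12 adrenal genes, set against the mean of the early kidneys, was 2.40 in week 1 replicate 4, 2.31 in week 2 replicate 4 and 0.68 in week 1 replicate 1, and -0.56 to -0.35 in the other 17 kidneys.

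At week 5, 13 of 21 leukocyte adhesion genes, 12 of 31 macrophage and monocyte markers, 12 of 52 cell cycle genes and 12 of 44 matrix genes were higher than at weeks 1 to 3, and 14 of 40 interferon-stimulated genes were lower. By limma's moderated test with Benjamini-Hochberg adjustment over all probe sets, 85 of 45037 probe sets were called higher (0.189%) and 10 were called lower (0.0222%), where called means an adjusted p below 0.05 and a change above 2-fold. Without the fold threshold 429 probe sets were higher and 121 lower. With 1 probe set per gene, 51 of 17097 genes were called higher and 6 lower. For single genes and gene lists, rose and fell stand for an adjusted p under 0.05 at any fold. By that rule 263 genes rose (1.54%) and 61 fell (0.357%), and the median change over all genes was 0.01. Without the 3 kidneys with adrenal transcripts the counts of called probe sets were 93 higher and 12 lower, a comparison added after seeing the data.

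**Figure D1:**
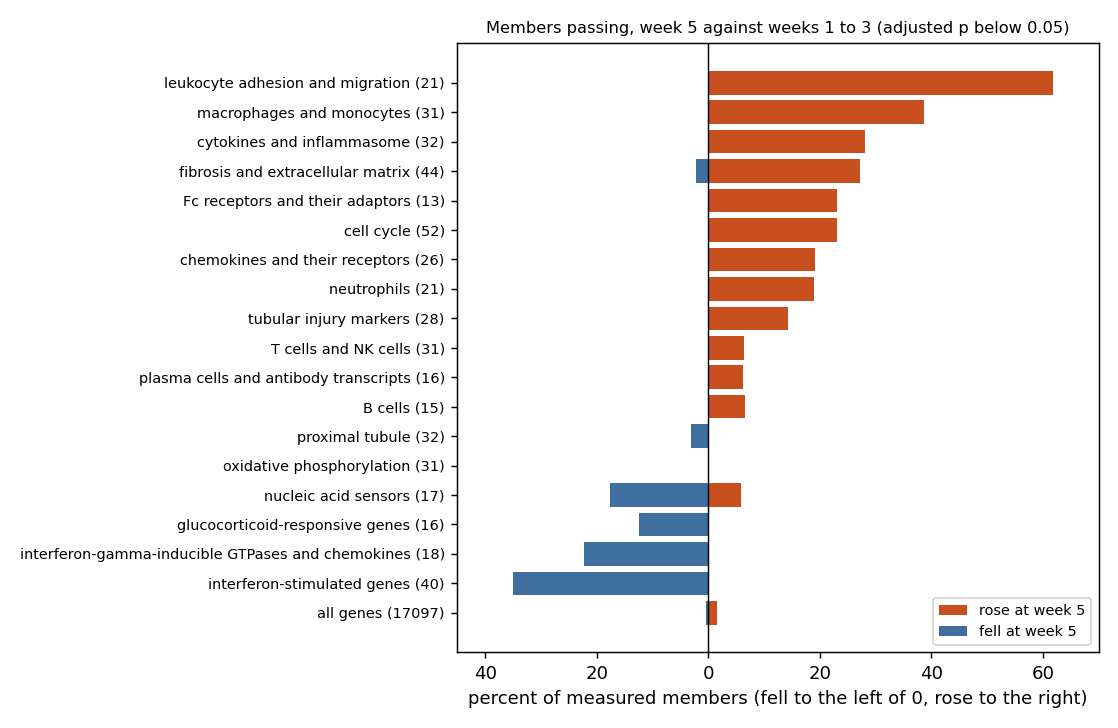
Percent of the measured members of each gene list (number of measured members in brackets) that rose, to the right of 0, or fell, to the left of 0, at week 5 against weeks 1 to 3 with an adjusted p below 0.05 (limma). Leukocyte adhesion genes have the longest bar to the right (13 of 21 members) and interferon-stimulated genes the longest to the left (14 of 40), beside 263 risers and 61 fallers among all 17097 genes.

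Several of the genes with the largest changes encode receptors of myeloid cells. Of the 51 genes called higher, 11 had all 5 week 5 kidneys above all 15 early kidneys. They were Adgre4, Clec4e, Ear3, Clec4d, Itga4, Csf2rb, Cep55, Cd244a, Lcp1, Emp3 and Ripor2. These 11 were named because their groups did not overlap, so the lack of overlap is no separate result. How many of all 17097 genes had no overlap was not counted. Adgre4, an adhesion receptor of the F4/80 family on myeloid cells, stood at 7.20, 5.35, 6.35, 6.67 and 5.45 in the week 5 kidneys, against 2.41 to 4.81 with a median of 3.30 in the early kidneys. That was a change of 2.75 (SE 0.28, 6.71-fold, adjusted p = 1.19e-05). The lowest week 5 kidney lay above the highest early kidney, and the 2 highest levels were those of replicates 1 and 4.

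Clec4e, which encodes the lectin receptor Mincle that senses mycobacterial glycolipids and dying cells, was at 6.65, 4.57, 4.62, 5.62 and 5.38 in the week 5 kidneys and at 2.38 to 4.44 in the early kidneys (median 2.65). Its change was 2.62 (SE 0.26, adjusted p = 1.12e-05), and a dimmer probe set of the gene did not pass (0.27, adjusted p = 0.527). Clec4d, the partner receptor encoded beside it, was at 5.56, 3.61, 3.75, 5.51 and 4.94 at week 5 and at 2.05 to 3.52 in the early kidneys. It rose by 2.01 (SE 0.25, adjusted p = 8.8e-05). For both genes the groups did not overlap. Ear3, of the eosinophil-associated ribonucleases, changed by 2.06 (SE 0.20, adjusted p = 7.94e-06), with week 5 kidneys at 4.40 to 5.78 and early kidneys at 2.61 to 3.99. Its probe set carries a suffix for cross-hybridization, so its signal can come from related ribonucleases.

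The formyl peptide receptor gene Fpr2, which guides phagocytes toward bacterial and mitochondrial peptides, had the largest change of the named genes. Its levels were 7.55, 5.61, 6.61, 7.42 and 6.68 at week 5 and 2.10 to 6.12 in the early kidneys (median 3.82). The change was 2.76 (SE 0.33, adjusted p = 7.5e-05), with 1 week 5 kidney, replicate 2, inside the early range. Acod1, the itaconate synthase of activated macrophages, which was chosen after its values were seen, had levels of 7.27, 5.09, 4.37, 6.14 and 4.90 at week 5 against 2.27 to 5.14 in the early kidneys (2.44, SE 0.33, adjusted p = 0.000195). For this gene 3 of the 5 week 5 kidneys lay inside the early range. Adgre4, Clec4e, Clec4d, Fpr2, Ear3 and Acod1 each passed under all the alternatives run on them.

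Genes with which leukocytes adhere and migrate, surface receptors and actin regulators among them, made up the next list. Of 21 measured members 13 rose, 8 did not pass and none fell, with a median change of 0.67 beside 0.01 for all genes. Itga4, the integrin subunit that binds VCAM1 on endothelium, was at 7.04, 5.40, 5.87, 6.12 and 6.59 at week 5 and at 3.45 to 5.12 in the early kidneys (median 4.40), a change of 1.84 (SE 0.21, adjusted p = 5.01e-05). The brightest of its 5 probe sets gave this value, and 1 of the dim ones was at -0.01 (adjusted p = 0.992). Ptprc, the pan-leukocyte phosphatase CD45, was at 8.48, 7.01, 7.64, 8.20 and 7.40 against 5.85 to 7.06, and rose by 1.39 (SE 0.16, adjusted p = 4.44e-05). Replicate 2 was the only week 5 kidney inside the early range of Ptprc.

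Cd44, the hyaluronan receptor, rose by 1.75 (SE 0.25), and Coro1a, an actin regulator of leukocytes, by 1.45 (SE 0.22), each with 4 of 5 week 5 kidneys above all early kidneys. The actin bundler of leukocytes, Lcp1, rose by 1.18 (SE 0.15) with no overlap. Of the same list, and chosen after their values were seen, Itgb2, the common beta chain of leukocyte integrins, changed by 1.20 (adjusted p = 0.00129), and Icam1 and Sele, which endothelial cells use to capture leukocytes, by 0.84 and 0.67 (adjusted p = 0.00203 and 0.00198). The count of 13 stayed between 10 and 14 under the alternatives.

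Macrophage and monocyte markers rose in part. Of 31 measured markers 12 rose and none fell, with a median of 0.42. Ms4a6d was at 6.45, 4.56, 5.08, 6.29 and 5.72 in the week 5 kidneys and at 3.27 to 4.84 in the early kidneys (1.52, SE 0.22, adjusted p = 0.000362). Clec4n, the fungal lectin receptor Dectin-2, changed by 1.42 (SE 0.18), Ms4a6c by 1.36 (SE 0.24) and Cd68, a lysosomal protein of macrophages, by 1.21 (SE 0.19), and Ccr2, the receptor that draws monocytes out of the marrow, by 0.91 (adjusted p = 0.00122). In week 5 kidneys Cd68 was at 5.18, 4.12, 3.79, 4.46 and 5.01, against 2.65 to 3.94, so that only replicate 3 fell inside the early range. The macrophage markers Adgre1 (F4/80) and Csf1r, also looked up after the list was counted, did not pass (0.39, adjusted p = 0.276, and 0.19, adjusted p = 0.603). Neither did C1qa (0.30, adjusted p = 0.524). The other members of the list that rose were Cx3cr1, Itgax, Lst1, Lyz2, Mpeg1, Mrc1 and Ms4a6b. Whether resident or incoming cells carried the change was not tested.

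The mean level of the macrophage list, set against the early mean, was 0.14 to 0.95 at week 5 with a median of 0.41, and -0.28 to 0.25 in the early kidneys. The highest value was in week 5 replicate 1 and the lowest of the week in replicate 2, which lay inside the early range. The count of 12 was 7 without week 5 replicate 1, and 10 without the kidneys with adrenal transcripts. It was 6 with all 33 arrays in the fit, 6 without week 2 and 7 without dim probe sets.

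Each of the other leukocyte lists had at most 4 members that rose, beside 263 of all 17097 genes (1.54%). The neutrophil list had 4 of 21 (Fpr2, Clec4e, Clec4d and Trem1), all of which monocytes and macrophages also make. S100a8 and S100a9, abundant calcium-binding proteins of the neutrophil cytosol, were at 2.56 to 3.18 and 3.14 to 3.56 in week 5 kidneys and at 2.04 to 2.99 and 2.48 to 3.61 in early kidneys, and neither passed (adjusted p = 0.468 and 0.847). The Fc receptor list had 3 of 13, the signalling chains Fcer1g (0.93, SE 0.17) and Tyrobp (0.88, SE 0.18) and the IgG receptor Fcgr4 (0.89, SE 0.20). It had 1 without week 5 replicate 1 and 1 without week 5 replicate 3. It also had 1 without week 1 or with all 33 arrays in the fit, and none without week 2. T cell and NK cell genes had 2 of 31, the chemokine receptors Cxcr3 and Cxcr6, and 1 without week 5 replicate 1 or without week 5 replicate 4. None of these 31 rose without week 2 or without dim probe sets. B cell genes had 1 of 15, Cd22, and the dendritic cell list had none of 12. The B cell count was 0 without week 5 replicate 1 or replicate 3, and 2 without replicate 4. It was also 0 without week 1, without week 2, without dim probe sets and with all 33 arrays.

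Antibody transcripts were spread widely among early kidneys. Jchain, which links IgM and IgA into polymers, was at 6.25, 5.06, 5.12, 4.77 and 5.64 at week 5 and at 2.69 to 5.91 in the early kidneys (median 3.61). It changed by 1.39 (SE 0.35, adjusted p = 0.0479), was the only 1 of 16 plasma cell genes to rise, and lost its pass under 23 of 34 alternatives, among them each of the week 5 kidneys left out in turn (adjusted p = 0.0585 to 0.23). Igkj1, a kappa light chain segment chosen after its values were seen, was at 6.0 to 7.10 at week 5 and at 1.71 to 6.20 early (2.74, SE 0.43, adjusted p = 0.000869). Its probe set can cross-hybridize with other kappa transcripts. With globin signal as a covariate its adjusted p was 0.0943.

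Cytokine genes of the interleukin 1 system were among the risers. Of 32 cytokine and inflammasome genes 9 rose and none fell (median 0.20). Il1b was at 7.46, 5.81, 5.99, 6.63 and 6.70 in the week 5 kidneys, against 4.41 to 5.96 (median 5.04) in the early kidneys, a change of 1.49 (SE 0.21, adjusted p = 0.000305). Its natural antagonist Il1rn was at 5.56, 4.20, 4.44, 3.92 and 4.09, against 2.28 to 4.30, and changed by 1.58 (SE 0.21, adjusted p = 0.000171). The other 2 probe sets of Il1rn were dim and did not pass (0.15 and 0.19), and the mean over its probe sets changed by 0.64 (adjusted p = 0.000429). Only replicate 2 of week 5 was inside the early range for Il1b, and replicates 2, 4 and 5 were for Il1rn.

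Csf2rb, the shared chain of the receptors for GM-CSF, interleukin 3 and interleukin 5, rose by 1.43 (SE 0.19, adjusted p = 0.000128) with no overlap between the groups, at 6.35 to 7.74 against 4.76 to 6.07. Its other probe sets changed less, by 0.75 (adjusted p = 0.00134) and 0.10 (adjusted p = 0.884). The anti-inflammatory cytokine Il10 changed by 0.96 (SE 0.20, adjusted p = 0.0105), was dim at 2.04 to 3.70 against 1.23 to 2.24, and did not pass without week 5 replicate 1 (adjusted p = 0.0648). Il10 also did not pass without week 1 (0.0651), without week 2 (0.0824) or with globin signal as a covariate (0.134). The count of 9 was 4 without week 5 replicate 1 and 4 without replicate 4, 4 without week 1, 3 without week 2, and 5 with all 33 arrays, without dim probe sets or with globin signal as a covariate.

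Of 26 chemokines and receptors 5 rose (median 0.27): Cxcl2, which attracts neutrophils, by 0.97 (SE 0.17), Ccl4 by 0.73 (SE 0.14), Ccl9 by 0.66 (SE 0.16), Cxcl13, which attracts B cells, by 0.62 (SE 0.15), and Cx3cl1. Ccl9 and Cxcl13 were close to the threshold. Ccl9 lost its pass under 24 of 34 alternatives, and Cxcl13 under 9 of 33, among them week 2 replicate 1 left out (adjusted p = 0.0504), week 5 replicate 1 (0.167) and week 5 replicate 4 (0.0585). The count of 5 was 2 or 3 when any of 10 kidneys was left out: week 1 replicates 1 and 3, week 2 replicates 1 and 2, week 3 replicates 1 and 3, and week 5 replicates 1, 3, 4 and 5. No chemokine gene rose with all 33 arrays in the fit, and 1 did without week 2. C5ar1, the receptor for complement fragment C5a, was the only 1 of 20 complement genes to rise (1.13, SE 0.18, adjusted p = 0.00107). Its dimmer probe set was flat (0.07, adjusted p = 0.929), and the mean over its probe sets changed by 0.60 (adjusted p = 0.00109).

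**Figure D2:**
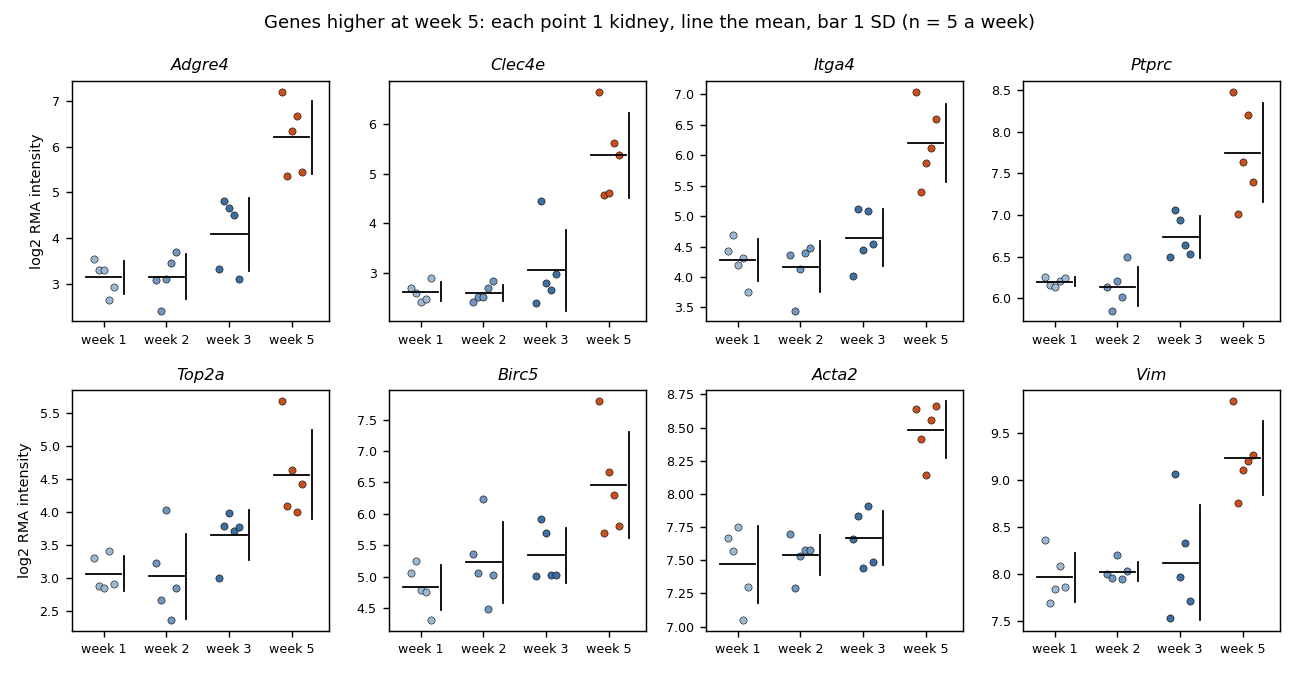
Levels of 8 genes that rose at week 5 (vertical axis, log2 RMA intensity, a scale of its own in each panel) in each kidney at weeks 1, 2, 3 and 5 (horizontal axis); points are kidneys, the horizontal line is the mean and the bar 1 SD (n = 5 a week). For Adgre4, Clec4e, Itga4 and Acta2 the lowest week 5 kidney lies above every early kidney, and week 5 replicate 1 is the highest point of every panel except Acta2.

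Genes of the cell cycle were higher at week 5 in part. All 52 measured cell cycle genes had a change above 0, beside 9051 of all 17097 genes. Of the 52, 12 rose, beside 263 of all genes (1.54%), none fell, and the median was 0.26. Birc5, which encodes survivin of the chromosomal passenger complex, was at 7.79, 5.69, 6.67, 6.30 and 5.81 in the week 5 kidneys and at 4.31 to 6.23 in the early kidneys (median 5.03), a change of 1.32 (SE 0.26, adjusted p = 0.00888). Top2a, the topoisomerase that untangles replicated DNA, was at 5.68, 4.10, 4.64, 4.0 and 4.43 against 2.37 to 4.04 (median 3.23), also a change of 1.32 (SE 0.23, adjusted p = 0.00257). Its other 2 probe sets were dim and did not pass (0.10 and 0.11).

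The spindle protein gene Prc1 changed by 1.21 (SE 0.23), and Nusap1, another spindle protein, by 1.01 (SE 0.21), which did not pass without week 5 replicate 1 (adjusted p = 0.0645) or replicate 3 (0.0581). Cep55, needed for the last cut between daughter cells and not a member of the list, was the only one of these mitotic genes with no overlap. It was at 5.90, 4.32, 4.28, 4.16 and 3.74 at week 5 and at 2.65 to 3.63 early (1.38, SE 0.22, adjusted p = 0.000869). The mean level of the cell cycle list was 0.93 in week 5 replicate 1 and 0.08 to 0.34 in the other 4 week 5 kidneys, against -0.23 to 0.18 in early kidneys. Without week 5 replicate 1 the count of 12 was 6, without replicate 3 it was also 6, and without the kidneys with adrenal transcripts it was 8. It was 2 with all 33 arrays in the fit, 4 without week 1, 7 without week 2 and 7 without dim probe sets. Birc5 did not pass without week 1 (adjusted p = 0.0987).

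The promoters of Birc5 and Top2a are shown because they were the 2 members of the cell cycle list with the largest changes. They run from 250 bases before to 50 bases after the RefSeq start site in build GRCm38.p6. Capitals, of which the Birc5 window has none, mark CCAAT, the box bound by NF-Y in many mitotic genes, and TTTGAA, the cell cycle homology region, searched on both strands.
Birc5 promoter, chr11:117848987-117849286, plus strand: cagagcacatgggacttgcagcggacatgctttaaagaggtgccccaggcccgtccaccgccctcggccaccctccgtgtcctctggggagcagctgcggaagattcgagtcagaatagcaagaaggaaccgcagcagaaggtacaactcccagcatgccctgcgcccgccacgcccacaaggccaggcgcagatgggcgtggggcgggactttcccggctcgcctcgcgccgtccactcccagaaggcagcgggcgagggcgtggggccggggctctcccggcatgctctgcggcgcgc
Top2a promoter, chr11:99024140-99024439, minus strand: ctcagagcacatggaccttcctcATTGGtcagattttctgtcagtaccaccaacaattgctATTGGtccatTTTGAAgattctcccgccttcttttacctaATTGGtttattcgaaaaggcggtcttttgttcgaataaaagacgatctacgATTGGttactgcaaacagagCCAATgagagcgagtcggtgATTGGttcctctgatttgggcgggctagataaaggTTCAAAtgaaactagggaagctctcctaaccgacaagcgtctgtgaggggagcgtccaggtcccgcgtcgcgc
The Top2a window held 6 CCAAT matches and 2 TTTGAA matches, and the Birc5 window held neither. Among 27025 genes with a promoter in the table (1 window per gene), 37.9% held CCAAT and 18.1% held TTTGAA. Of the 10 matched cell cycle genes that rose, 8 held CCAAT and 7 held TTTGAA. Of all 43 matched members of the list it was 32 and 22. A match describes these letters and shows no binding.

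Part of the matrix and contractile genes rose at week 5. Of 44 fibrosis and matrix genes 12 rose, 1 fell and 40 had a change above 0, with a median of 0.33. Over all 17097 genes 263 rose (1.54%), 61 fell (0.357%) and 9051 had a change above 0. Acta2, the smooth muscle actin that marks myofibroblasts, was at 8.64, 8.41, 8.14, 8.56 and 8.66 in the week 5 kidneys and at 7.05 to 7.91 in the early kidneys (median 7.58). It rose by 0.93 (SE 0.11, adjusted p = 7.38e-05), and the groups did not overlap. Vim, the intermediate filament of mesenchymal cells, was at 9.84, 8.76, 9.11, 9.20 and 9.27 against 7.53 to 9.07 (1.19, SE 0.18, adjusted p = 0.000491). Replicate 2 of week 5 was the only one inside the early range of Vim.

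S100a4, a calcium-binding protein of fibroblasts and leukocytes, rose by 1.26 (SE 0.17) and Tgfbi, a matrix protein induced by TGF beta, by 0.97 (SE 0.15). Collagen genes chosen after their values were seen moved less. Col1a1 was at 6.74 to 7.50 in week 5 kidneys and at 5.91 to 6.65 in early kidneys, a change of 0.80 (SE 0.12, adjusted p = 0.000503) with no overlap, and Col3a1 at 7.93 to 8.58 against 6.85 to 7.94 (0.77, SE 0.14, adjusted p = 0.00398). Eln, the elastin gene, changed by 0.76 (SE 0.10, adjusted p = 9.4e-05). Col5a2 was the member that fell (-0.58, adjusted p = 0.0475), and it lost this under 18 of 34 alternatives, each week 5 kidney except replicate 2 among the arrays left out. The probe set of Col1a2 was dim and flat (0.97 to 1.55 against 1.03 to 1.86). Tnc, the tenascin C gene, was at 6.09 to 6.25 in week 5 kidneys and 4.98 to 6.31 in early kidneys (0.44, adjusted p = 0.295). The count of 12 that rose was 9 to 13 when each kidney was left out in turn, and 5 passed with all 33 arrays in the fit and 7 with globin signal as a covariate.

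Part of the tubular injury markers rose. Of 28 markers 4 rose, beside 263 of all 17097 genes (1.54%). They were Cd44, given above, the phospholipid-binding annexins Anxa1 and Anxa2 (0.56 each) and the keratin Krt7 (0.35, SE 0.08). Krt7 lost its pass under 18 of 34 alternatives, Anxa2 under 7 and Anxa1 under 5. The count was 1 without week 5 replicate 3 and 2 without replicate 4. It was also 1 with all 33 arrays or with globin signal as a covariate, and 2 without week 1 or week 2. Havcr1, which encodes the injury marker KIM-1, was at 6.81, 6.93, 7.33, 7.48 and 7.23 at week 5 and at 6.88 to 7.67 in the early kidneys, a change of -0.09 (SE 0.12, adjusted p = 0.925). Lcn2, the injury marker NGAL, was chosen after its values were seen, and was at 4.46, 3.32, 4.0, 4.21 and 4.66 against 3.17 to 4.27 (0.52, SE 0.17, adjusted p = 0.223). Without week 5 replicate 2, the lowest of the week, Lcn2 passed (0.72, adjusted p = 0.0218). Both genes overlapped widely between the groups. For scale, their means in the later kidneys of the series were 9.70 at week 7 and 9.53 at week 9 for Havcr1, and 8.30 and 7.61 for Lcn2, with no test made here.

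Of 32 proximal tubule genes none rose and 1 fell, and of 31 oxidative phosphorylation genes and 26 genes each of fatty acid oxidation and of amino acid catabolism none passed. The proximal tubule gene that fell was Serpina6, which encodes the corticosteroid carrier of plasma. It was at 3.92, 6.0, 5.44, 5.11 and 5.88 in the week 5 kidneys and at 4.64 to 7.55 (median 6.75) in the early kidneys, a change of -1.36 (SE 0.28, adjusted p = 0.0103), and did not pass without week 5 replicate 1 (adjusted p = 0.0622). Only replicate 1 lay below all early kidneys. In the distal nephron Cldn16, a tight junction protein for magnesium uptake, rose by 0.49 (SE 0.09), and in the collecting duct the water channel Aqp4 was lower by 0.40 (-0.40, adjusted p = 0.0488), which was lost under 24 of 34 alternatives. In the endothelial list Flt1, a VEGF receptor, fell by 0.49 (SE 0.10, adjusted p = 0.00888). It did not pass without week 5 replicate 4 (adjusted p = 0.058), without week 1 (0.149) or without week 2 (0.0812). With globin signal as a covariate its adjusted p was 0.0546. The other probe sets of Flt1 did not pass (-0.15, adjusted p = 0.518, and -0.02, adjusted p = 0.99). Sox17, of the same list, rose by 0.55, which was lost under 15 of 34 alternatives.

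The interferon-stimulated genes ran the other way. Of 40 measured members none rose and 14 fell, and 36 had a change below 0, with a median of -0.43. Among all 17097 genes 61 fell (0.357%) and 8046 had a change below 0. Ifit1, an RNA-binding antiviral protein, was at 8.81, 7.99, 8.65, 9.15 and 8.79 in the week 5 kidneys and at 9.00 to 10.74 (median 9.80) in the early kidneys, and fell by 1.23 (SE 0.15, adjusted p = 8.8e-05). Only replicate 4 of week 5 reached the early range. Ifit3, its partner, was at 10.76, 9.97, 10.12, 10.67 and 10.39 against 10.77 to 12.16 (median 11.43), and fell by 1.10 (SE 0.14, adjusted p = 0.000101). It was the only 1 of the 6 genes called lower whose groups did not overlap.

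Usp18, the protease that removes ISG15 and damps the interferon receptor, was at 8.02, 7.21, 7.47, 7.85 and 8.11 against 8.19 to 9.54, and fell by 0.99 (SE 0.13, adjusted p = 0.000202) with no overlap. Irf7, the transcription factor that amplifies interferon alpha, was at 6.86, 5.43, 6.24, 7.08 and 7.08 against 6.63 to 8.64, and fell by 1.09 (SE 0.19, adjusted p = 0.00249). The week 5 means of Ifit1, Ifit3, Irf7 and Usp18 were 8.68, 10.38, 6.54 and 7.73. In the untreated kidneys of the series the means were 5.45 for Ifit1, 8.70 for Ifit3, 4.02 for Irf7 and 5.27 for Usp18, with no test made here.

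The promoter of Ifit1 is shown because Ifit1 had the largest change in the list. Capitals mark GAAANNGAA, the core of the interferon-stimulated response element, on either strand.
Ifit1 promoter, chr19:34640639-34640938, plus strand: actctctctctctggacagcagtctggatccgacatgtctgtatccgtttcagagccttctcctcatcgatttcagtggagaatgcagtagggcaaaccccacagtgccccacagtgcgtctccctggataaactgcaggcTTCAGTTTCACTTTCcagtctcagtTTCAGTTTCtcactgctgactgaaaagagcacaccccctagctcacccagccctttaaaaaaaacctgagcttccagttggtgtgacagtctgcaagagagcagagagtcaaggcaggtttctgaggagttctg
The window held 3 matches, 2 of which overlap, all on the strand opposite to the gene. The motif stood in 8.57% of the 27025 promoters, in 14 of 31 matched members of the list and in 4 of 11 matched members that fell.

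**Figure D3:**
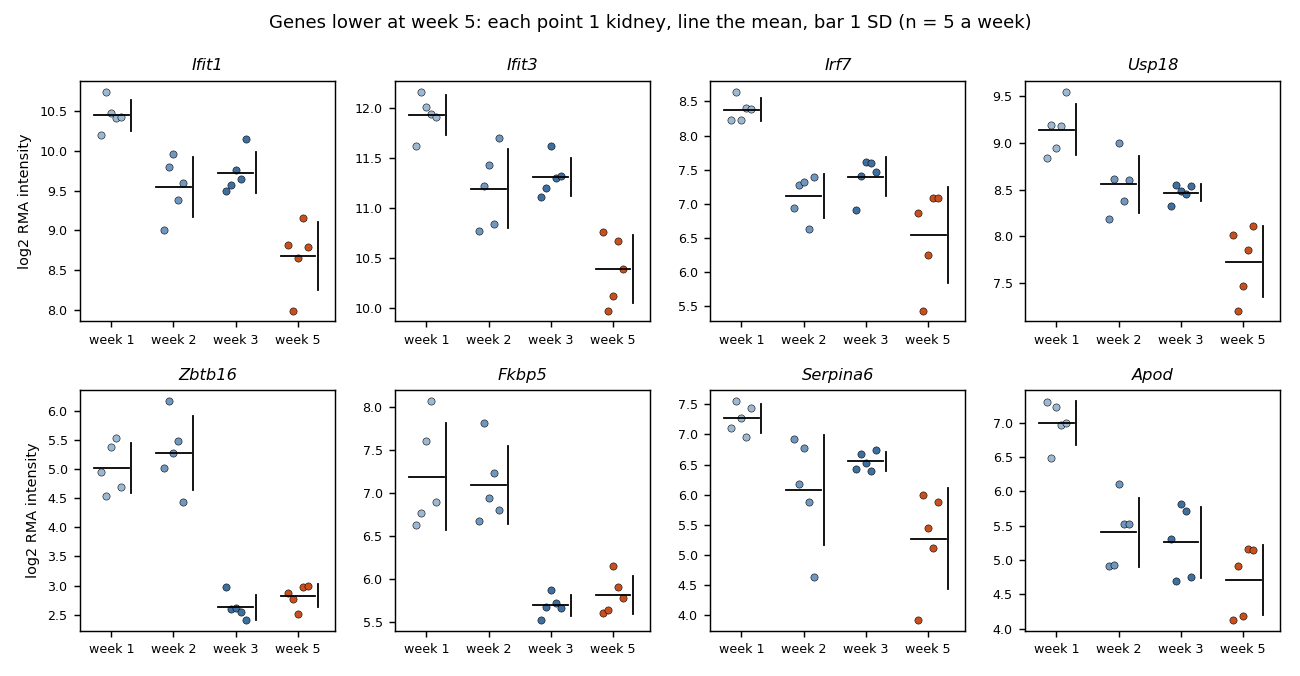
Levels of 8 genes that were lower at week 5 than the mean of weeks 1 to 3 (vertical axis, log2 RMA intensity, a scale of its own in each panel) in each kidney at weeks 1, 2, 3 and 5 (horizontal axis); points are kidneys, the horizontal line is the mean and the bar 1 SD (n = 5 a week). Ifit3 and Usp18 lie below all early kidneys at week 5, whereas Zbtb16 and Fkbp5 are low at week 3 already (means of 2.63 and 5.69) and at week 5 (2.82 and 5.81).

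Cytosolic sensors of viral RNA, which are themselves interferon targets, fell with them: Dhx58 by 0.67 (SE 0.14), Ifih1, which encodes MDA5, by 0.59 (SE 0.11) and Ddx58, which encodes RIG-I, by 0.43 (SE 0.10). The DNA sensor gene Cgas rose instead. It was at 6.42, 6.21, 6.13, 6.32 and 6.26 in the week 5 kidneys against 5.63 to 6.13 in the early kidneys (0.47, SE 0.08, adjusted p = 0.00101), while Sting1, its adaptor, was level (3.28 to 4.29 against 3.61 to 4.26, adjusted p = 1). Of 17 sensor genes these 4 passed. The count of those that fell was 1 without week 5 replicate 2 and 1 without replicate 3. It was also 1 with the early kidneys as 1 group of 15. No sensor gene fell without week 1, with all 33 arrays in the fit or with globin signal as a covariate. Of 18 genes of interferon gamma GTPases and chemokines 4 fell (Tgtp1, Igtp, Irgm1 and Gbp3, by 0.99, 0.80, 0.64 and 0.61) and none rose, and no member fell without week 5 replicate 2 or without replicate 3. Leaving out week 3 replicate 4 gave 2 that fell, as did leaving out week 5 replicate 4, and 1 fell when week 5 replicate 5 was left out. No interferon gamma gene fell without week 1, with all 33 arrays or with globin signal as a covariate. The same held with the early kidneys as 1 group of 15. In MHC class I presentation H2-T23 alone of 14 members passed (-0.60, adjusted p = 0.0286), and not without week 5 replicate 2, 3 or 4. It also did not pass without week 1 (adjusted p = 0.339), with the early kidneys as 1 group of 15 (0.108) or with all 33 arrays (0.242). The dimmer probe set of H2-T23 was level (0.02, adjusted p = 0.987), and the mean over its probe sets did not pass (-0.29, adjusted p = 0.205).

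The mean level of the 40 interferon-stimulated genes, set against the early mean, was -0.84 to -0.16 at week 5, against 0.14 to 0.38 at week 1, -0.47 to 0.05 at week 2 and -0.23 to 0.13 at week 3. Week 5 overlapped weeks 2 and 3 and not week 1. The count of 14 was 9 without week 5 replicate 2 and 9 without replicate 3, 4 without week 1, 5 with globin signal as a covariate, 7 with the early kidneys as 1 group of 15 and 2 with all 33 arrays in the fit. Globin transcripts also differed at week 1. Hba-a1 averaged 9.64 at week 5, 6.56 at week 1, 9.38 at week 2 and 10.17 at week 3, and its rise in the pooled comparison (0.94, adjusted p = 0.018) turned to -0.14 (adjusted p = 0.944) without week 1. It was lost without week 5 replicate 2 (adjusted p = 0.0818), 3 (0.066) or 4 (0.0646). The adjusted p of Ifit1 and Ifit3 stayed at most at 0.0434 and 0.0134 under the alternatives.

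**Figure D4:**
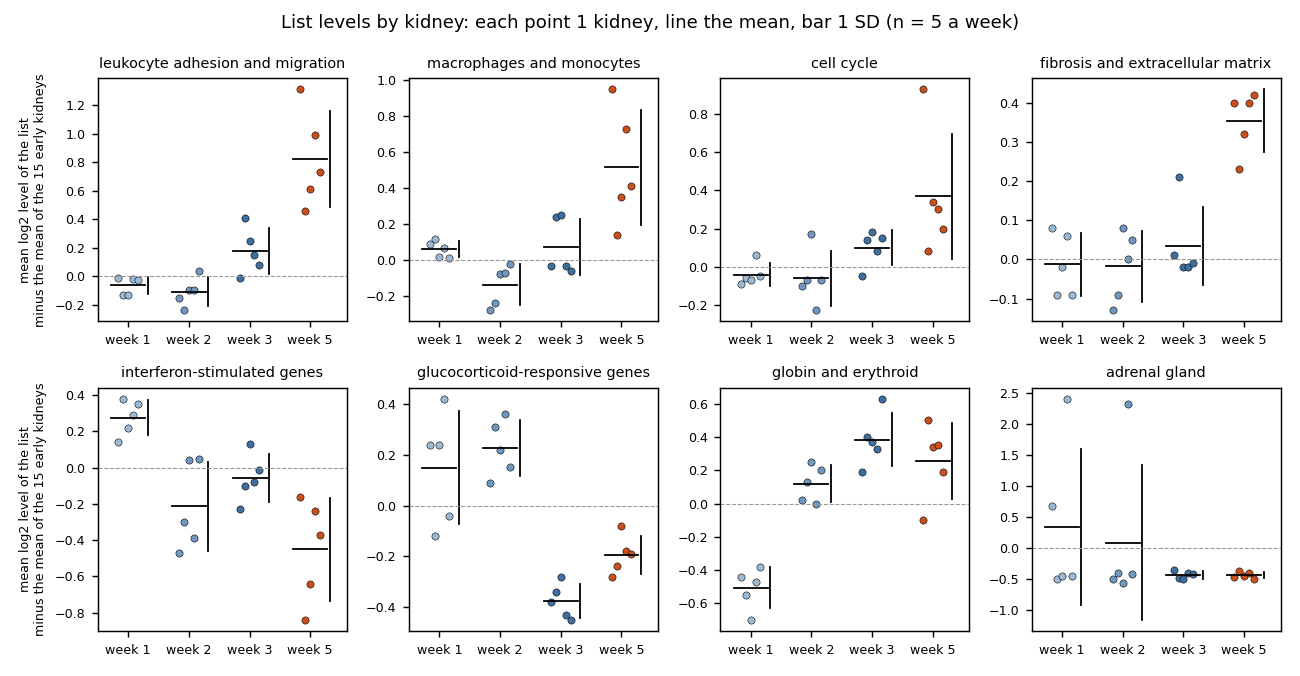
Mean log2 level of 8 gene lists in each kidney minus the mean of the 15 early kidneys (vertical axis, a scale of its own in each panel) at weeks 1, 2, 3 and 5 (horizontal axis); points are kidneys, the horizontal line is the mean and the bar 1 SD (n = 5 a week). The leukocyte adhesion and fibrosis lists are above every early kidney at week 5, the globin list is low at week 1 alone, and the adrenal list is high in 3 early kidneys.

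For some genes the change against the pooled weeks came from weeks 1 and 2 alone. Zbtb16, the zinc finger gene PLZF, which glucocorticoids induce, was at 2.88, 2.77, 2.51, 2.98 and 2.99 in the week 5 kidneys and at 2.41 to 6.16 (median 4.69) in the early kidneys. Its change against the pooled weeks was -1.48 (SE 0.18, adjusted p = 8.88e-05), yet against week 3 alone it was 0.20 (adjusted p = 0.948), since week 3 averaged 2.63 and weeks 1 and 2 averaged 5.01 and 5.27. With the early kidneys as 1 group of 15 Zbtb16 did not pass (adjusted p = 0.263), and its dimmer probe set was flat (-0.04, adjusted p = 0.973). Fkbp5, the cochaperone of the glucocorticoid receptor, gave the same picture, with a pooled change of -0.84 (SE 0.18, adjusted p = 0.017) and 0.13 against week 3 (adjusted p = 0.978). Its fall was lost without week 5 replicate 1 (adjusted p = 0.0772) or 2 (0.0529), and without week 1 (0.0944) or week 2 (0.158). With the early kidneys as 1 group of 15 its adjusted p was 0.381, with all 33 arrays 0.331, and with globin signal as a covariate 0.449. The dimmer probe sets of Fkbp5 were flat (0.02 and -0.03), and the mean over its probe sets did not pass (-0.28, adjusted p = 0.095). Zbtb16 and Fkbp5 were the only members of 16 glucocorticoid-responsive genes to pass. Tsc22d3, the leucine zipper gene GILZ, chosen after its values were seen, did not (-0.50, adjusted p = 0.148). It passed without week 3 (-0.79, adjusted p = 0.0204), without week 1 replicate 2 (-0.55, 0.0441) and as the mean of its probe sets (-0.38, 0.0362).

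Differences among weeks 1, 2 and 3 were tested with an F test, which 146 probe sets passed (0.324%), Zbtb16 (adjusted p = 2.49e-07) and Fkbp5 (0.00181) among them. The mean level of the glucocorticoid list was -0.28 to -0.08 at week 5 and -0.45 to 0.42 in the early kidneys. Zbtb16 stood at 4.44 to 6.16 over the 10 kidneys of weeks 1 and 2, of which 3 held adrenal transcripts. The regulatory kinase subunit gene Prkag3 (-0.90, SE 0.18) and Apod, a lipid-binding secreted protein (-1.18, SE 0.21), fell as well. Apod was at 4.13, 4.91, 4.19, 5.16 and 5.15 at week 5 and averaged 6.99 at week 1, 5.40 at week 2 and 5.26 at week 3. It did not pass without week 1 (adjusted p = 0.398), and neither did Prkag3 (0.224), Serpina6 (0.229) or Irf7 (0.224). Prkag3 did not pass without week 5 replicate 1 (0.0572) or 3 (0.0594) either.

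Set against each early week in turn, week 5 had 113 probe sets called higher (0.251%) and 38 called lower (0.0844%) than week 1, 99 higher (0.22%) and 9 lower (0.02%) than week 2, and 21 higher (0.0466%) and 1 lower (0.00222%) than week 3. The 3 comparisons share the week 5 kidneys and 1 fit. Counts against week 3 turned on single kidneys. With a week 5 kidney left out they were 3 higher without replicate 1, 63 without replicate 2, 3 without replicate 4 and 4 without replicate 5. With a week 3 kidney left out they were 6, 45, 10, 7 and 4 for replicates 1 to 5 in that order. The difference between the 3 counts was not tested.

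Against week 3 the 12 genes called higher were Adgre4, Clec4e, Ear3, Clec4d, Bcl2a1a, Itga4, Plek, Clec4n, Ptprc, Vim, Lcp1 and Emp3. Adgre4 changed by 3.06 against week 1, 3.05 against week 2 and 2.13 against week 3 (adjusted p = 2.52e-05, 5.15e-05 and 0.0207). Clec4e changed by 2.75, 2.78 and 2.32 against the same weeks (adjusted p = 0.0042 against week 3). Bcl2a1a, a survival gene of the BCL2 family whose probe set also reads its near-identical copies, changed by 1.82, 2.23 and 1.57, and Plek, a substrate of protein kinase C in leukocytes and platelets, by 1.84, 2.08 and 1.34, both chosen after their values were seen. Ifit1 was the gene called lower, by -1.77, -0.87 and -1.04 against weeks 1, 2 and 3 (adjusted p = 0.031 against week 3).

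Mitotic genes did not reach the threshold against week 3 alone. Top2a changed by 1.5 against week 1, 1.54 against week 2 and 0.92 against week 3 (adjusted p = 0.00444, 0.00566 and 0.331), and Birc5 by 1.62, 1.22 and 1.12 (adjusted p = 0.0076, 0.087 and 0.273). Acta2 did, at 1.01, 0.95 and 0.82 (adjusted p = 0.000156, 0.000513 and 0.0207). The list medians had the same sign in all 3 comparisons for leukocyte adhesion (0.71, 0.78 and 0.51), macrophages (0.37, 0.57 and 0.39), fibrosis (0.31, 0.34 and 0.27), cell cycle (0.29, 0.31 and 0.17) and interferon-stimulated genes (-0.62, -0.22 and -0.40), whereas the median of the MHC class II list was 0.44, 0.35 and -0.30.

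**Figure D5:**
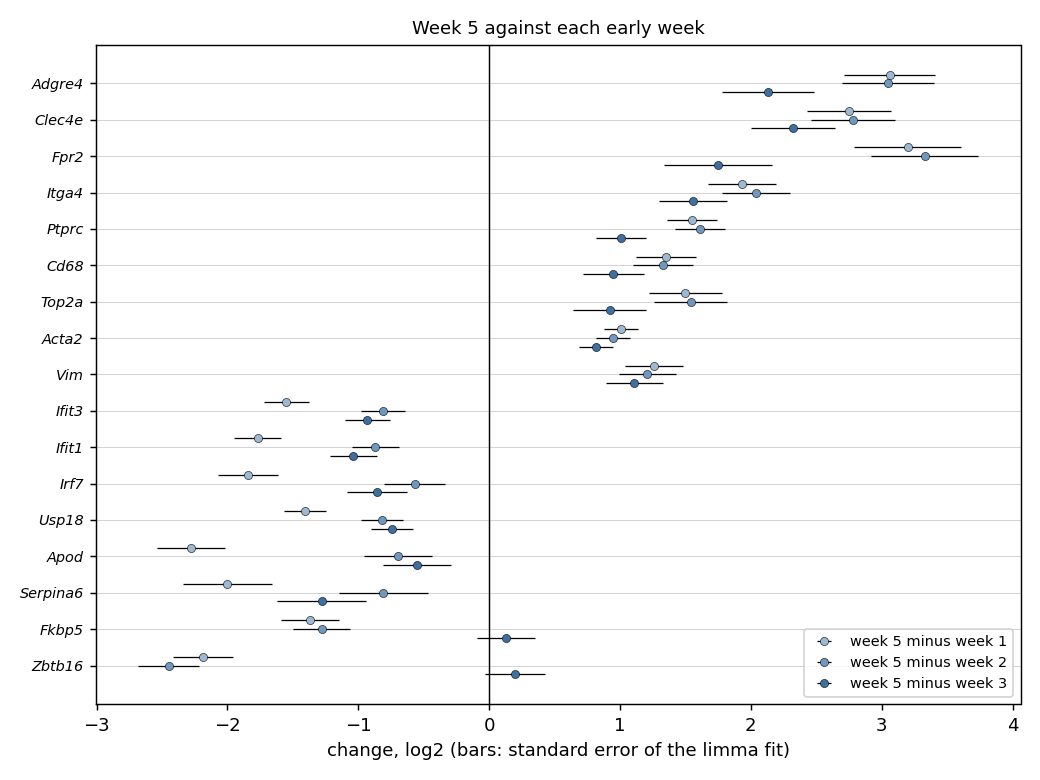
Change in log2 level (horizontal axis) at week 5 minus week 1, minus week 2 and minus week 3 for 17 genes (vertical axis); points are the fitted changes and bars the standard error of the limma fit (5 kidneys a week). The risers lie to the right of 0 against every week, and Zbtb16 and Fkbp5 lie left of 0 against weeks 1 and 2 and near 0 against week 3 (0.20 and 0.13).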

How the data were processed

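Kidney RNA of 20 treated BWF1 mice was used, 1 array each. The authors deposited log2 values made with RMA, a procedure of background correction, quantile normalization and summary over probes. Base 2 is inferred from their range, 0.62 to 13 in these arrays. The submitters' processing notes name RMA and Partek, and versions are not given in the sources used here. No further normalization was applied. Nothing in the labels assigns arrays to a batch. Precision is limited by how many arrays there are, and RMA compresses the changes of dim probe sets.

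Of 45141 probe sets, 104 controls were left out. The annotation gave 1 symbol to 28898, several to 551 and none to 15588. Each of 17097 genes was represented by its brightest probe set, and genes with more than 1 numbered 7180. Of the other probe sets of named genes, 21 passed in the same direction, 44 had the same direction without passing and 9 had the opposite direction without passing. A model with 4 week means was fitted with limma 3.58.1 (lmFit and eBayes, R 4.3.3; 16 residual degrees of freedom), and week 5 was compared with the mean of weeks 1, 2 and 3. Benjamini-Hochberg adjustment was over all 45037 tested probe sets. The script was tested on simulated data. The labels do not say more of the mice than that they are separate samples, which the design text describes as separate animals, so p-values measure the spread between mice.

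Genes were named by rule: up to 15 called genes per direction with no overlap between groups, filled up to 10 with the largest other changes that passed where there were fewer, up to 4 members of each of 47 lists by size of change, and those the study's text discusses. The text marks genes outside this rule. The comparison, the members and the lists were chosen with earlier results of these data known. Alternatives changed the arrays in the fit, the grouping, a filter on dim probe sets (log2 level of at least 5 in a week mean), scaling, array weights, covariates, the replicate block, the probe set per gene and the arrays left out. Promoter sequences are from RefSeq (GRCm38.p6).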

Additional observations from a re-analysis of the deposited data

Results flagged for a closer look

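Among 37 genes and 47 lists, 336 groups of 5 kidneys were examined for a kidney far from the other 4, and 14 groups had one. Chance marks about 1 in 20 groups, and 14 of 336 is below that rate, so the kidneys are given as values only. At week 5, replicate 1 was apart from the other 4 kidneys of its week for Cep55 (5.90, others 3.74 to 4.32) and for the mean level of the MHC class II list (0.75, others -0.12 to 0.08, relative to the early mean), and replicate 2 for that of the tubular injury list (0.02, others 0.19 to 0.24).

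In the early weeks, week 3 replicate 2 was high for Clec4e (4.44, others 2.38 to 2.97) and for the fibrosis list (0.21, others -0.02 to 0.01). Week 2 replicate 2 was low for Csf2rb (4.76, others 5.65 to 5.86). Week 2 replicate 5 was low for Emp3 (4.38, others 5.24 to 5.55) and Fbn2 (2.13, others 2.53 to 2.68), and high for S100a9 (3.39, others 3.03 to 3.11) and for the fatty acid oxidation list (0.10, others -0.04 to -0.02). Week 2 replicate 4 was high for the adrenal list (2.31, others -0.56 to -0.39). List levels were also apart for the interferon receptor list in week 1 replicate 5 (0.09, others -0.05 to -0.02), the sensor list in week 3 replicate 3 (0.15, others -0.06 to 0) and the cell cycle list in week 1 replicate 4 (0.06, others -0.09 to -0.05).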

How the results depend on the processing

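The pooled comparison gave 60 to 117 probe sets higher and 7 to 12 lower when each kidney was left out in turn, beside 85 and 10. Without the fold threshold the counts were 429 and 121 (549 and 254 against week 1, 294 and 64 against week 2, and 6 lower against week 3). The count lower was 4 with weeks 1 to 3 as 1 group of 15 and 4 without week 1. With globin signal as a covariate, week 5 against week 1 gave 12 higher and 0 lower and week 5 against week 3 gave 3 and 0. Leaving out each kidney gave 87 to 153 higher and 29 to 43 lower against week 1, 71 to 142 and 8 to 12 against week 2, and 3 to 63 and 0 to 3 against week 3. Against week 3, the counts higher and lower were 6 and 0 with all 33 arrays, with the replicate block and without the 3 kidneys with adrenal transcripts (an alternative added after seeing the data), and 2 were lower without dim probe sets. The F test among weeks 1 to 3 passed 55 probe sets with all 33 arrays. The beta-actin difference lay between -0.07 and -0.02.

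Replicate numbers did not pair the kidneys: deviations of same-numbered kidneys correlated at -0.02 on average (-0.16 to 0.31 over 30 pairs). With the replicate block the pooled counts were 84 higher and 9 lower, and 9 named genes lost their pass. Of 85 named genes that passed, 36 passed under every alternative run on them. Hba-a1 was the only named gene among those that passed to turn direction (-0.14 without week 1, beside 0.94). The cause of these differences was not tested.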

Other observations

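Klf15, a transcription factor of metabolism that glucocorticoids induce, and Usp2, a clock-controlled ubiquitin protease, fell at week 5. For both, all 5 week 5 kidneys lay below all 15 early kidneys, for Usp2 by 8.86 against 8.87 only. How many of all genes had no overlap was not counted. Klf15 was chosen after its values were seen. Klf15 was at 6.59, 6.87, 6.94, 7.00 and 6.94 at week 5 and at 7.11 to 7.96 in the early kidneys (-0.52, SE 0.09, adjusted p = 0.00319, limma), and Usp2 at 8.41, 8.82, 8.86, 8.84 and 8.46 against 8.87 to 9.77 (-0.53, SE 0.10, adjusted p = 0.00421). Against week 3 alone neither passed (adjusted p = 0.311 and 0.547). In the pooled comparison neither passed without week 1 (0.076 and 0.0686) or with all 33 arrays (0.272 and 0.0632). The same held with globin signal as a covariate (0.0659 and 0.0751). Herpud1, a gene of the unfolded protein response, fell by 0.73 (SE 0.13, adjusted p = 0.00364), and was 1 of 22 members of its list to pass. Folh1, a brush border peptidase also chosen after its values were seen, fell by 0.75 (SE 0.10, adjusted p = 0.000195), with 4.87 to 5.32 at week 5 and 5.15 to 6.39 in the early kidneys, and differed among weeks 1, 2 and 3 (adjusted p = 0.0285).

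The platelet list had 2 of 10 members that rose, the integrin chain Itgb3 (0.91, SE 0.14) and the platelet chemokine Pf4 (0.41, SE 0.09). It had 1 without week 5 replicate 3, without week 1 or without week 2. It also had 1 with all 33 arrays, with the early kidneys as 1 group of 15 or with globin signal as a covariate. None rose without dim probe sets. The other probe set of Itgb3 was flat (-0.01, adjusted p = 0.988). Synpo, a podocyte actin organizer, was the member of the podocyte list that rose (0.36, adjusted p = 0.0382), and lost its pass under 20 of 34 alternatives. Of 18 acute phase genes Fgg, a fibrinogen chain, rose (0.65, SE 0.13, adjusted p = 0.0104), and did not without week 5 replicate 1 (adjusted p = 0.0633) or replicate 3 (0.0653). Fgg also did not pass with all 33 arrays (0.615) or with globin signal as a covariate (0.117). Saa1 and Saa3 were level (0.03 and 0.27).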
